A study of Mus musculus with 3 samples.

Results

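The genes described here carry and restrain fibroblast growth factor (FGF) signalling in the mouse blastocyst. There are 10 of them among the 31510 genes of the deposited tables: the ligand Fgf4, the receptors Fgfr1 and Fgfr2, the membrane-associated inhibitors Spry2, Spry4 and Spred1, the phosphatases Dusp4 and Dusp6, and the transcription factors Etv4 and Etv5. They were chosen by name for their place in the pathway, with earlier results of these data known. Of the 10, 5 were found through the symbol in the tables and 5 through the Ensembl identifier. RNA was sequenced from CD-1 mouse blastocysts in 3 states of delayed implantation, in which an embryo stops growing in the uterus until estradiol (E2) from the mother's ovaries ends the delay. In all 3 states the mothers, 2 months old, lost their ovaries on pregnancy day 4 and were injected with progesterone, 2 mg each, on days 5 to 7. Dormant blastocysts, without E2, were flushed out on day 8. Reactivating blastocysts were taken 6 h, and reactivated blastocysts 12 h, after E2 was given on day 7. Each state is 1 library made from a pool of more than 3000 blastocysts, so no difference between states could be checked in a replicate, and E2 and the time of collection cannot be told apart.

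FGF ligands bind receptor tyrosine kinases together with heparan sulphate, and the activated receptors pass the signal through adaptors, RAS, RAF and MEK to the kinase ERK. In the blastocyst, FGF4 from the epiblast directs neighbouring inner cells towards primitive endoderm through FGFR1 and FGFR2 and keeps the polar trophectoderm dividing. Active ERK switches on genes that limit it. Sprouty and Spred proteins block the pathway upstream of ERK, DUSP4 and DUSP6 are phosphatases that remove phosphate from ERK family kinases, and ETV4 and ETV5 are ETS-family factors induced by FGF signals in many tissues. Transcripts of several of these genes are therefore widely used as a readout of FGF activity, although RNA alone does not measure ERK activity.

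The tables held 9298675 exon reads for dormant, 10364607 for reactivating and 12941447 for reactivated blastocysts. Levels are the authors' RPKM, that is, exon reads corrected for exon length and for library size. Of the exon reads, 19.7%, 19.8% and 25.8% in the same order came from genes of the mitochondrial genome. Intervals are exact 95% Poisson intervals of the reads, intervals of ratios are exact and conditional on the summed reads, and all cover counting error only. A gene counted as higher or lower when log2((RPKM + 1)/(RPKM + 1)) was at least 1 in size and the higher library had at least 1 RPKM. "Rose" and "fell" refer to that rule, and no test across replicates was possible. All 10 genes had at least 1 RPKM in every library and entered every comparison.

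The labelled tissue carried the markers of its 3 lineages. Epiblast Pou5f1 stood at 87.09, 124.87 and 123.71 RPKM in dormant, reactivating and reactivated blastocysts, and Nanog at 14.60, 21.69 and 17.69 RPKM. Gata6, a primitive endoderm factor, stood at 11.80, 9.64 and 7.47 RPKM. Cdx2, a trophectoderm factor, stood at 112.57, 95.81 and 34.83 RPKM, so it was lower in reactivated than in dormant blastocysts by 1.66 on the log2 scale. These are whole embryos, and fewer cells of a type and less RNA per cell cannot be told apart in any value below.

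The stretches of genome just before the start sites of Spry2 and Dusp6 are shown because Spry2 fell at 12 h, to 0.476 of its dormant level, whereas Dusp6 was at 1.03 of its own. Both are the 250 bases before the RefSeq start (GRCm38.p6), on the gene's strand, 5′ to 3′, at chr14:105896820-105897069 on the minus strand for Spry2 and chr10:99262981-99263230 on the plus strand for Dusp6. Capitals mark CGGAA, a form of the ETS core, or its reverse complement TTCCG.
Spry2: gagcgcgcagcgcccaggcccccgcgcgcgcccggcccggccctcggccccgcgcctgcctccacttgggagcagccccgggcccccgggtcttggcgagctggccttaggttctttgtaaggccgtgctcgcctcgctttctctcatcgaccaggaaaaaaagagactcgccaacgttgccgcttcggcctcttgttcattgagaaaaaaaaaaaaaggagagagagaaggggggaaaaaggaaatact
Dusp6: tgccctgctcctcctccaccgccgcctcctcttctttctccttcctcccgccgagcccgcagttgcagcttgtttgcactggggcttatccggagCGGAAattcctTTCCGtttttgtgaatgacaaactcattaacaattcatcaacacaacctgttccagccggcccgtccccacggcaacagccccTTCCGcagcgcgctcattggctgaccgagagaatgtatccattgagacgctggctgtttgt
The Dusp6 stretch holds 3 matches to these letters, which begin 155, 144 and 61 bases before the start, and the Spry2 stretch holds 0. The shorter core GGAA was not counted, and it does occur in the Spry2 stretch. Of the 6 genes with an entry in the RefSeq promoter table, Spred1 has 1 match to CGGAA or TTCCG. Fgf4, Fgfr2 and Etv5, the last with 2 listed starts, have 0. Among 32851 promoter stretches of the same length, 25.2% hold at least 1 such match on either strand. A match in these letters is a description of the sequence and says nothing on whether a factor binds there.

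Levels of the 10 genes spanned a wide range. In dormant blastocysts Fgfr2 and Dusp6 were highest, at 54.46 and 50.91 RPKM, and their intervals overlapped. Spry2 and Dusp4 followed at 29.10 and 26.19 RPKM, also with overlapping intervals, and then Fgfr1 at 17.12 RPKM and Fgf4 at 6.08 RPKM. Spry4, Spred1 and Etv5 lay together at 3.46, 3.20 and 2.91 RPKM, each overlapping the next in order, and Etv4 was lowest at 1.89 RPKM. Among protein-coding genes that reached 1 RPKM in dormant blastocysts, Fgfr2 ranked above 95.9% and Etv4 above 11.3%. In reactivated blastocysts Dusp6 was highest at 52.61 RPKM with Fgfr2 second at 34.47 RPKM, and their intervals were apart. There the intervals of Dusp4 and Fgfr1 overlapped at 10.36 and 9.41 RPKM, and Etv4 was again lowest at 2.04 RPKM.

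**Figure D1:**
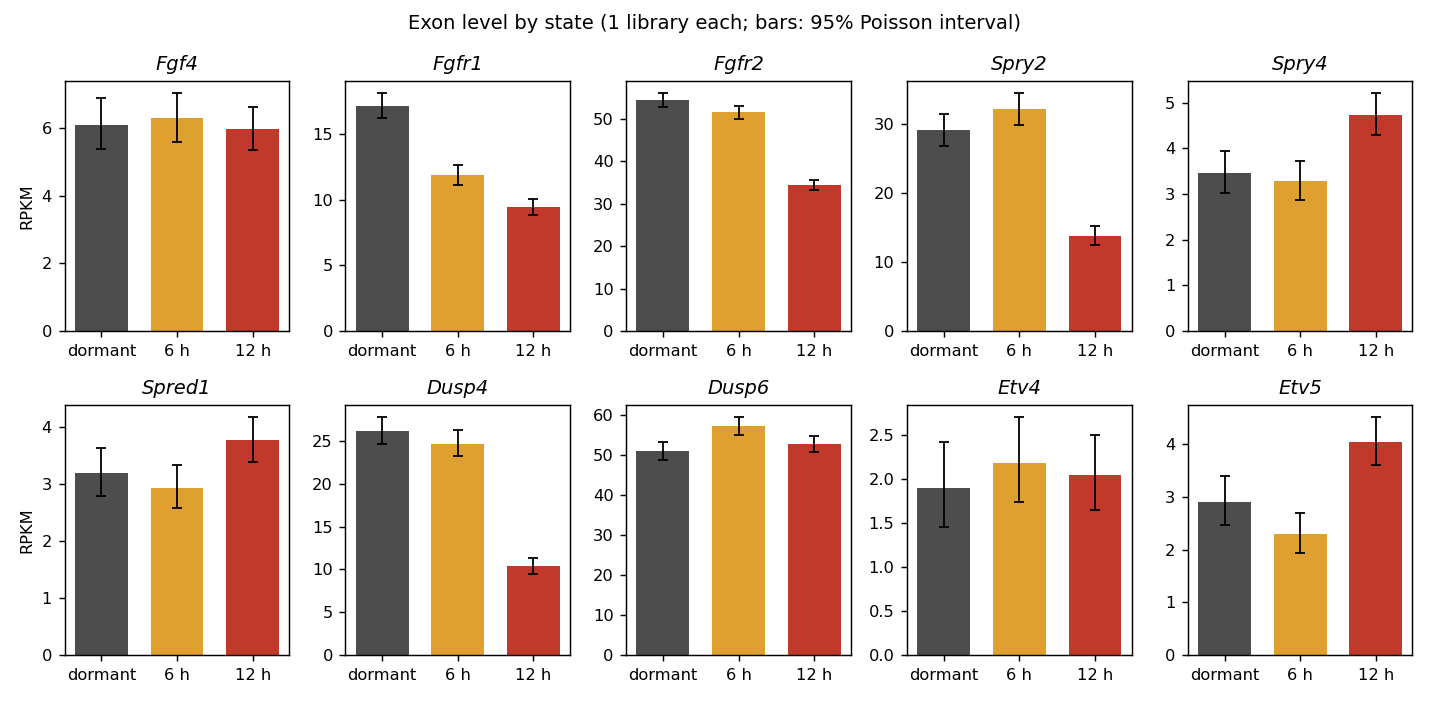
Exon level in RPKM on a linear axis from 0, with 1 bar for each library: dormant, 6 h after E2 (reactivating) and 12 h after E2 (reactivated), and error bars for the 95% Poisson interval of the reads. Spry2 and Dusp4 have short bars at 12 h only, at 13.84 and 10.36 RPKM, while Fgf4 and Dusp6 are nearly level.

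At 6 h after E2, 0 of the 10 genes rose and 0 fell by the size rule. Over all 12126 genes compared, 2.68% were higher and 3.07% lower, so a count of 0 among 10 genes is near the background. The median log2 difference of the 10 genes was -0.07, against 0.07 for protein-coding genes. At 12 h, 2 of the 10 genes fell relative to dormant blastocysts, Spry2 and Dusp4, and 0 rose. The same rule called 5.27% of all 12037 genes higher and 7.66% lower, and 5.53% of protein-coding genes lower. Relative to reactivating blastocysts, again Spry2 and Dusp4 fell and 0 genes rose, with 3.82% of all genes higher and 7.63% lower, and 6.60% of protein-coding genes lower. The median of the 10 genes was 0.01 against dormant and -0.09 against reactivating blastocysts, beside -0.07 and -0.13 for protein-coding genes. Each of these comparisons shares a library with each of the others.

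The ligand stayed within counting error. Fgf4 (ENSMUSG00000050917, chr7:144861386-144865245, plus strand, GRCm38) had 260, 298 and 342 exon reads in dormant, reactivating and reactivated blastocysts, or 6.08, 6.27 and 5.95 RPKM. The 3 intervals overlapped, and the ratio of reactivated to dormant was 0.978, with an interval of 0.830 to 1.15. Its introns held 13, 8 and 6 reads, too few for a comparison.

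Among the other FGF ligands, 2 of 21 reached 1 RPKM, and both are named after their values were seen. Fgf10, a ligand of the FGFR2 form found in epithelia, had 11.48, 9.39 and 8.55 RPKM in dormant, reactivating and reactivated blastocysts. Fgf3, which acts on the same receptor form, had 3.17, 4.24 and 3.39 RPKM. Neither passed the size rule in a comparison. Fgf5, a ligand of the epiblast after implantation, was near the detection limit at 0.06, 0.25 and 0.32 RPKM.

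Both receptors had lower levels at 12 h than in dormancy, without passing the size rule. Fgfr1 (ENSMUSG00000031565, chr8:25518759-25575718, plus strand) had 1257, 968 and 929 exon reads, or 17.12, 11.86 and 9.41 RPKM, in dormant, reactivating and reactivated blastocysts. The 3 intervals did not overlap. The ratio of reactivating to dormant was 0.693, with an interval of 0.637 to 0.754, and the ratio of reactivated to dormant was 0.550, with an interval of 0.504 to 0.599. In log2 terms the 6 h difference was -0.49, below that of all but 3.45% of protein-coding genes, and the 12 h difference was -0.80, below that of all but 10.2%.

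Fgfr2 (ENSMUSG00000030849, chr7:130162451-130266808, minus strand) had 4181, 4403 and 3558 exon reads, or 54.46, 51.61 and 34.47 RPKM. Unlike that of Fgfr1, its lower level appeared almost wholly in the later interval. The ratio of reactivating to dormant was 0.948, with an interval of 0.908 to 0.989, and the ratio of reactivated to dormant was 0.633, with an interval of 0.605 to 0.662. Reads across exon junctions numbered 711, 781 and 591 in the same order of states.

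The other FGF receptors fell at 12 h. Fgfr4, a receptor best known for FGF signals in liver, had 29.55, 28.91 and 10.25 RPKM in dormant, reactivating and reactivated blastocysts, a log2 difference of -1.44 between reactivated and dormant. Fgfr3, which also transmits the signal, had 3.05, 2.56 and 0.72 RPKM, a log2 difference of -1.24. All 4 receptors with a kinase domain were thus lowest in the reactivated library. Relative to dormancy 2 of 4 passed the size rule, where 7.66% of all genes and 5.53% of protein-coding genes were lower. The median log2 difference of protein-coding genes was itself -0.07. Their summed RPKM was 104, 94.9 and 54.9 in dormant, reactivating and reactivated embryos. Fgfr2 made up 52.3%, 54.4% and 62.8% of that sum. The sum was formed after the values had been seen.

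Of the membrane-associated inhibitors, Spry2 fell at 12 h, and Spry4 and Spred1 did not pass the rule. Spry2 (ENSMUSG00000022114, chr14:105891947-105896819, minus strand) encodes a Sprouty protein that blocks the step from receptor to RAS. It had 624, 766 and 399 exon reads, or 29.10, 32.15 and 13.84 RPKM, in dormant, reactivating and reactivated blastocysts. The first 2 intervals overlapped, and the third lay far below both. The ratio of reactivated to dormant was 0.476, with an interval of 0.418 to 0.540, and of reactivated to reactivating 0.430, with an interval of 0.380 to 0.486. These are log2 differences of -1.02 and -1.16. The first is at the edge of the rule: it became -0.94 with median-ratio scaling, -0.91 with upper-quartile scaling and -0.99 with mitochondrial and small RNA genes left out of the total, all short of the rule. The second fell short with upper-quartile scaling, at -0.99.

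Spry4 (ENSMUSG00000024427, chr18:38586247-38601347, minus strand), another Sprouty gene, had 224, 236 and 412 exon reads, or 3.46, 3.28 and 4.73 RPKM. Its value was highest in the reactivated library, and the ratio to dormant was 1.37, with an interval of 1.16 to 1.62. Spred1 (ENSMUSG00000027351, chr2:117121071-117182279, plus strand), a Sprouty-related gene whose product brings the RAS inhibitor neurofibromin to the membrane, had 228, 233 and 362 exon reads, or 3.20, 2.94 and 3.78 RPKM. The ratio of reactivated to dormant was 1.18, and its interval of 0.998 to 1.40 reached 1. In each of the 3 libraries both genes had lower levels than Spry2.

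Spry1 had 9.26, 10.07 and 6.80 RPKM in dormant, reactivating and reactivated blastocysts, and Spred2 had 2.60, 2.49 and 3.48 RPKM. Summed over 6 Sprouty and Spred genes, a sum formed after the values had been seen, the level was 47.8, 51.3 and 33.1 RPKM. Spry2 supplied 60.8%, 62.6% and 41.9% of it in the same order of states.

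Of the phosphatases, Dusp4 fell at 12 h and Dusp6 did not pass the rule. Dusp4 (ENSMUSG00000031530, chr8:34807610-34819894, plus strand) encodes a nuclear phosphatase of ERK and related kinases. It had 1013, 1062 and 539 exon reads, or 26.19, 24.71 and 10.36 RPKM, in dormant, reactivating and reactivated blastocysts. The dormant and reactivating intervals overlapped, and the reactivated interval lay below both. The ratio of reactivated to dormant was 0.396, with an interval of 0.356 to 0.440, and of reactivated to reactivating 0.419, with an interval of 0.377 to 0.466. The log2 differences were -1.26 and -1.18, and they stayed past the size rule under every scaling tried. They were -1.15 to -1.37 against dormant and -1.01 to -1.28 against reactivating, the latter at the edge of the rule with upper-quartile scaling. A log2 difference from dormant as low as that of Dusp4 was reached by 2.64% of protein-coding genes, against 5.23% for Spry2.

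Dusp6 (ENSMUSG00000019960, chr10:99263231-99267489, plus strand) encodes a cytoplasmic phosphatase with high preference for ERK. It had 2007, 2506 and 2788 exon reads, or 50.91, 57.22 and 52.61 RPKM. The reactivating level was slightly above the dormant one, at a ratio of 1.12 with an interval of 1.06 to 1.19. The reactivated level had a ratio to dormant of 1.03, with an interval of 0.975 to 1.09, so a change of 2 times in either direction lies outside the counting error.

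Over 12 genes of the Dusp family, 11 could be compared between reactivated and dormant blastocysts, and Dusp4 alone passed the size rule. That is near the 7.66% of all genes that were lower. The family's summed RPKM, again a sum formed after its members' values were seen, was 150, 154 and 142 across dormant, reactivating and reactivated embryos, with Dusp6 at 33.9%, 37.2% and 37.1% of it.

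The transcription factors had low levels and did not pass the rule. Etv5 (ENSMUSG00000013089, chr16:22381313-22439570, minus strand) had 161, 141 and 301 exon reads, or 2.91, 2.29 and 4.04 RPKM, in dormant, reactivating and reactivated blastocysts. The reactivated interval lay above both others. The ratio of reactivated to dormant was 1.39, with an interval of 1.14 to 1.69, and of reactivated to reactivating 1.76, with an interval of 1.44 to 2.17. On the log2 scale the latest of these differences, 0.62, exceeded that of 91.4% of protein-coding genes.

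Etv4 (ENSMUSG00000017724, chr11:101769747-101785310, minus strand) had 64, 82 and 93 exon reads, or 1.89, 2.18 and 2.04 RPKM, with 3 overlapping intervals. The ratio of reactivated to dormant was 1.08, with an interval of 0.778 to 1.51. These few reads leave changes of up to about that size undetectable. Reads on the strand opposite to Etv4 numbered 15, 8 and 31 in dormant, reactivating and reactivated blastocysts, which is 15.6%, 7.21% and 18.5% of the reads on both strands of the gene. For Etv5 that share was 7.29%, 8.04% and 7.71%. For the other 8 genes it was at most 5.59%, and the exon reads given above are those on the gene's own strand, per the file headers.

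Introns gave a separate set of reads for the same genes. They are counted outside the exons of the authors' gene models and scaled to all reads in genes of the library; whether they came from unspliced RNA was not tested. With at least 20 intron reads in a library, 9 of the 10 genes could be compared. At 6 h, 0 of them differed by 2 times. At 12 h relative to dormant blastocysts, 3 of 9 were lower by at least 2 times, Fgfr1, Spry2 and Dusp4, where 6.49% of all genes were. Relative to reactivating blastocysts, 4 of 9 were lower, the same genes and Dusp6, where 7.83% of all genes were. In neither comparison was a gene of the 9 higher by 2 times. The comparison with dormancy depends on the denominator: scaled to all intron reads, Spry2 was the 1 gene lower by 2 times, at a ratio of 0.482, while Dusp4 at 0.533 and Fgfr1 at 0.542 no longer were, and Etv4 was higher at 2.31. Relative to reactivating blastocysts the same 4 genes were lower with either denominator.

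The 2 genes that fell in exons also had fewer intron reads. Spry2 had 87, 97 and 47 intron reads in dormant, reactivating and reactivated blastocysts, and the ratio of reactivated to dormant was 0.410, with an interval of 0.281 to 0.592. Dusp4 had 149, 232 and 89 intron reads, with a ratio of 0.454 and an interval of 0.345 to 0.594. Both intron intervals overlapped the exon intervals of the same genes. At 6 h the Dusp4 introns stood above dormancy, at a ratio of 1.45 with an interval of 1.17 to 1.79, while its exon ratio was 0.944 with an interval of 0.865 to 1.03.

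Dusp6 and Fgfr1 also showed exon and intron values that parted at 6 h. Dusp6 had 75, 143 and 77 intron reads, a ratio of 1.77 at 6 h with an interval of 1.33 to 2.37, and of 0.780 at 12 h with an interval of 0.560 to 1.09, both relative to dormancy. Its highest intron value was thus in the reactivating library, as was its highest exon level. Fgfr1 had 571, 709 and 347 intron reads. Its ratio of reactivating to dormant was 1.15 in introns, with an interval of 1.03 to 1.29, beside 0.693 in exons. At 12 h the introns of Fgfr1 had a ratio to dormancy of 0.462, with an interval of 0.403 to 0.528. Introns made up 31.2%, 42.3% and 27.2% of the Fgfr1 reads in dormant, reactivating and reactivated blastocysts, and the Wilson intervals of the 6 h share and the dormant share did not overlap.

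Fgfr2 was alike in both kinds of reads, with a ratio of reactivated to dormant of 0.589 in introns, with an interval of 0.560 to 0.619, beside 0.633 in exons. In Etv5 they pointed in different directions with this scaling. Its 246, 271 and 250 intron reads gave a ratio of 0.772 at 12 h, with an interval of 0.645 to 0.924, beside 1.39 in exons. Spred1 had 193, 155 and 175 intron reads and a ratio of 0.689 at 12 h, with an interval of 0.558 to 0.849, beside 1.18 in exons. Scaled to all intron reads, these intron ratios were closer to 1, at 0.907 for Etv5 and 0.809 for Spred1. No interval was computed with that denominator, so how far these contrasts exceed counting error depends on the scaling. Spry4 had 101, 68 and 112 intron reads, and its intron ratio at 12 h was 0.842, with an interval of 0.638 to 1.11. Etv4 had 17, 21 and 44 intron reads, a ratio of 1.97 at 12 h with an interval of 1.10 to 3.67.

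**Figure D2:**
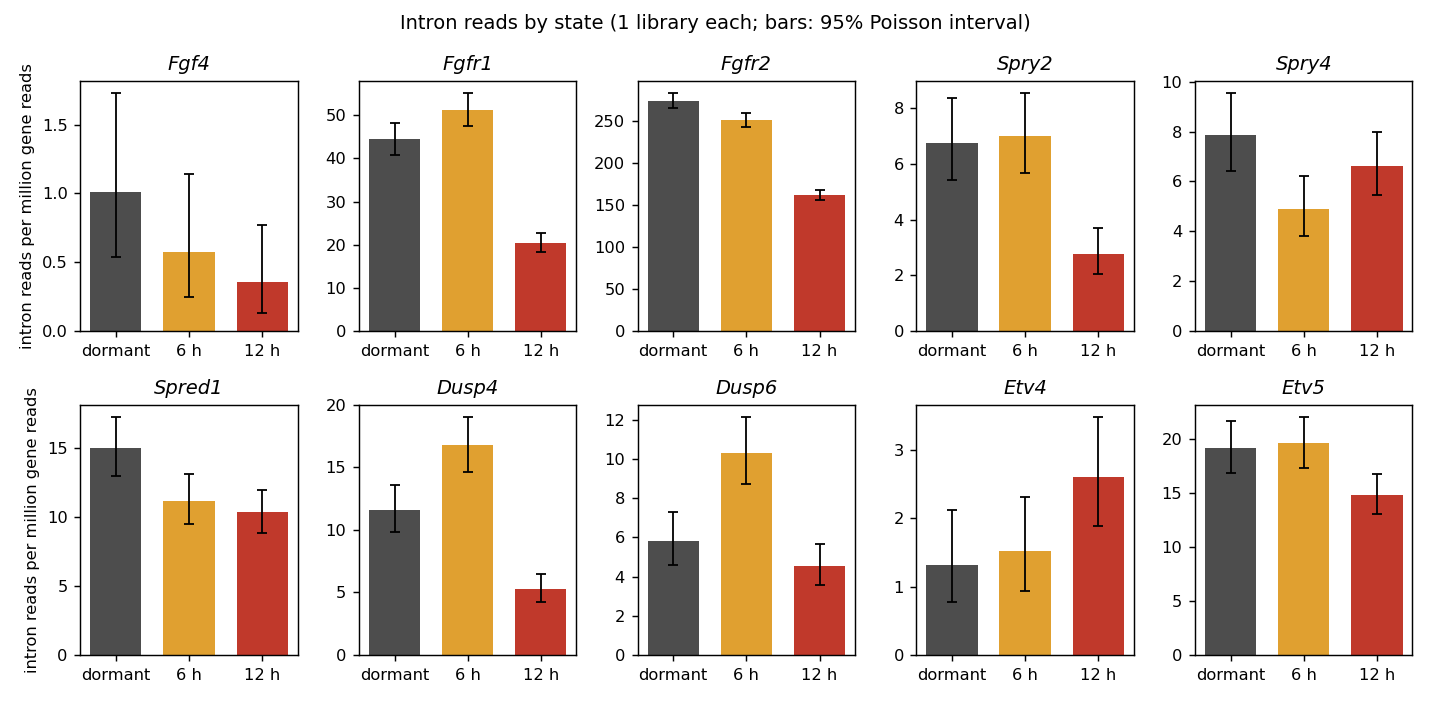
Intron reads, scaled to all gene reads of the library (RPM), on a linear axis from 0, with 1 bar for each library (dormant, 6 h and 12 h after E2) and error bars for the 95% Poisson interval. The bars of Dusp4, Dusp6 and Fgfr1 are tallest at 6 h, at 16.8, 10.3 and 51.2, and those of Spry2 and Etv5 are only slightly taller at 6 h than in dormancy. Every gene but Spry4 and Etv4 has its shortest bar at 12 h, with Spry2 at 2.78 and Fgfr2 at 162.

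**Figure D3:**
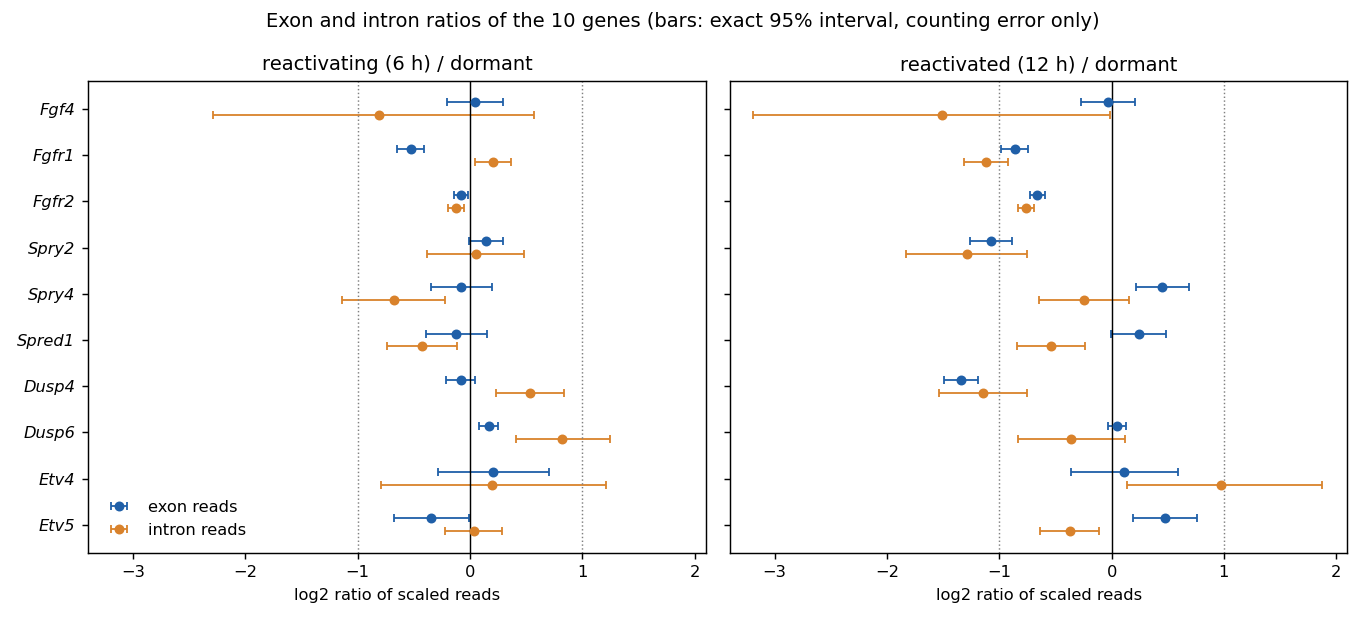
Log2 ratio of scaled reads for exons and introns, reactivating over dormant on the left and reactivated over dormant on the right, with exact 95% intervals for counting error; dotted lines mark 2 times in either direction. At 12 h Fgfr1, Fgfr2, Spry2 and Dusp4 lie left of 0 in both kinds of reads, with exon ratios of 0.550, 0.633, 0.476 and 0.396.

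The rest of the pathway gives the setting for these values. Between receptor and RAS, 1 of 14 adaptor genes compared at 12 h fell relative to dormancy and 0 rose, near the 7.66% of all genes that were lower. The gene that fell, Frs3, named after its value was seen, is a docking protein of FGF receptors and had 4.22, 4.96 and 0.86 RPKM in dormant, reactivating and reactivated blastocysts. Its more abundant relative Frs2 had 19.88, 16.62 and 17.55 RPKM, and Grb2, which links receptors to RAS activators, had 6.47, 7.70 and 5.85 RPKM. The median log2 difference of the 14 genes was -0.32.

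From RAS to ERK, 1 of 15 genes compared fell at 12 h and 0 rose, again near the 7.66% of all genes. That gene, Rras, a RAS relative, had 13.28, 7.29 and 5.41 RPKM in dormant, reactivating and reactivated blastocysts. Mapk3, which encodes an ERK kinase, did not pass the rule, at 14.36, 12.86 and 9.42 RPKM. The list's median log2 difference was -0.00.

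Of 20 genes compared in the list of other feedback genes and RAS inhibitors, 1 rose at 12 h relative to dormancy and 0 fell, with a median of -0.12. Over all genes 5.27% were higher and 7.66% lower, so 1 of 20 is near the background. The gene that rose was Flrt3, a membrane protein shown in Xenopus to bind FGF receptors and promote their signalling, at 6.49, 5.93 and 14.12 RPKM in dormant, reactivating and reactivated blastocysts.

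Genes that respond to ERK or act as its nuclear targets gave the most calls of these lists. Of 19 compared, 5 fell at 12 h relative to dormancy and 0 rose, where 7.66% of all genes were lower and 5.27% higher. The list's median log2 difference was -0.49, beside -0.07 for protein-coding genes. Because the lists were chosen with earlier results of these data known, neither value can be read as an excess over the background. Junb had 47.22, 42.44 and 12.47 RPKM in dormant, reactivating and reactivated blastocysts. Fos, its partner in the AP-1 factor, had 49.83, 51.05 and 17.62 RPKM. Egr1, an immediate early gene, had 5.03, 3.92 and 1.66 RPKM. The others that fell are named after their values were seen. Erf, an ETS-family repressor that ERK inactivates, had 74.06, 70.15 and 34.83 RPKM. Elk1, an ETS-family activator phosphorylated by ERK, had 6.63, 7.88 and 2.71 RPKM. Several of these genes respond to other signals too. Other genes of the list had higher values at 12 h without passing the rule, among them Ccnd1, a cyclin of the start of the cell cycle, at 9.07, 10.11 and 17.90 RPKM, and the ETS-family gene Etv6 at 4.0, 4.19 and 6.54 RPKM, both also chosen after their values were seen. In these 4 groups (adaptors, RAS to ERK, other feedback genes and ERK-responsive genes), 0 genes passed the rule at 6 h.

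**Figure D4:**
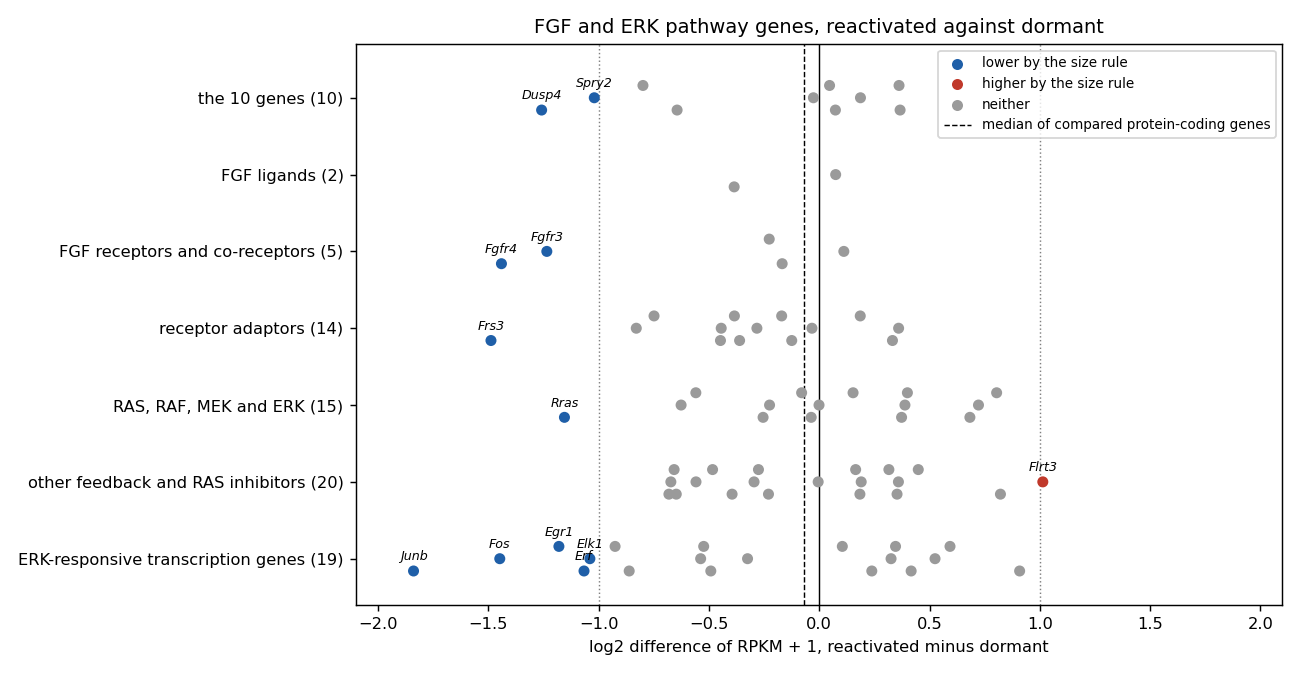
Log2 difference of RPKM + 1, reactivated minus dormant, for the 10 genes and for other pathway genes by list, with the number compared in parentheses; coloured points pass the size rule and the dashed line is the median of protein-coding genes. In the ERK-responsive list 5 of 19 points lie at or below -1, and in the list of other feedback genes and RAS inhibitors the 1 of 20 above 1 is Flrt3, which is not an inhibitor.

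Among genes listed as markers of cell types other than the embryo, the immune and uterine epithelium sums were lower at 12 h than in dormancy. Whether the reads of these genes came from such cells or from the embryo was not tested. The stroma sum depended on Vim, and red blood cell markers were low throughout. Immune markers summed to 20.1, 17.5 and 6.47 RPKM in dormant, reactivating and reactivated blastocysts, with 3 of 10 genes reaching 1 RPKM in a library, chiefly Laptm5 at 13.7, 11.5 and 4.11 RPKM. The defining immune gene Ptprc was at most 0.27 RPKM. Uterine epithelium markers summed to 110, 103 and 61.4 RPKM, with 6 of 12 reaching 1 RPKM. That sum was mostly Lif, Msx1 and Wfdc2, while Ltf, Cxcl15, Pgr and Esr1 were below 1 RPKM in every library. Foxa2, named after its values were seen, is on this list and on the primitive endoderm list. It had its highest value at 12 h, with 1.82, 1.84 and 3.60 RPKM. Uterine stroma markers summed to 8.67, 6.86 and 6.75 RPKM, and to 5.09, 4.31 and 1.86 RPKM without Vim, which many cell types express. Leaving out Vim was chosen after its values were seen. Col3a1 had 2.39, 1.73 and 0.71 RPKM. The summed level of red blood cell markers was 0.76, 0.61 and 0.61 RPKM, with 3 of 7 at 0 reads in every library. Among embryonic lineages, epiblast markers summed to 528, 554 and 478 RPKM, primitive endoderm markers to 666, 734 and 627 RPKM, and trophectoderm markers to 1797, 1875 and 2015 RPKM. Without Tspan8 (409.25, 480.92 and 782.12 RPKM), left out after its values were seen, the trophectoderm sum was 1388, 1394 and 1233 RPKM, and the median log2 difference of 13 trophectoderm markers at 12 h relative to dormancy was -0.37. At 12 h relative to dormancy, the size rule called 2 of 13 epiblast markers lower (Klf2 and Klf5) and 1 of 15 primitive endoderm markers lower (Dab2). The same rule called 7.66% of all genes lower and 5.27% higher. Of 13 trophectoderm markers, 2 rose (Krt19 and Elf5) and 2 fell (Cdx2 and Gata3, the second named after its value was seen). The part of these cell types in the lower values of Spry2, Dusp4 and the receptors was not tested.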

How the data were processed

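Per the labels' protocols, ribosomal RNA was depleted and 50 bp single-end SOLiD reads were made. The authors deposited, per the file headers, read counts per gene in exons, introns, across junctions and on the opposite strand, and an RPKM per gene. The submitters' processing notes name GRCm38. The aligner was not given in the sources used here, nor were the counting tool and the annotation. Exon reads, exon length and RPKM implied totals of 14118723, 15687239 and 18982195 reads (dormant, reactivating, reactivated), used for intervals. At the smallest count allowed for (3 reads), a gene with 1 kb of exon would have 0.212, 0.191 and 0.158 RPKM.

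Differences were log2((RPKM + 1)/(RPKM + 1)), which understates changes of low genes. Calls needed 1 on that scale and 1 RPKM. With 1 library per state no p-value was computed. Members and lists were chosen with earlier results of these data known. Named genes were the members, the 3 largest changes past the rule per list with at least 5 RPKM, and 14 genes by name, of which 1 is not reported here. Genes of like pattern were not sought, since 3 libraries give only 2 independent differences. Coordinates and promoter sequences are from RefSeq GRCm38.p6, biotypes from GENCODE M21. Python 3.11.15, numpy 2.4.6, pandas 2.3.3 and scipy 1.17.1 were used. The alternatives changed scaling, pseudocount, RPKM minimum, fold and intron denominator.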

Additional observations from a re-analysis of the deposited data

How the results depend on the processing

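Of the 10 genes, 2 were called at 12 h relative to dormancy. That count was 1 (Dusp4) with median-ratio scaling, 1 with upper-quartile scaling and 1 when mitochondrial and small RNA genes were left out of the total, and 4 at 1.5 times, which added Fgfr1 and Fgfr2 and called 20.3% of all genes lower. Relative to reactivating blastocysts the count of 2 became 1 with upper-quartile scaling, where Spry2 had a log2 difference of -0.99, and 3 at 1.5 times, with Etv5 higher, where 11.5% of all genes were higher and 21.1% lower. Over 150 alternative values of the members, 0 reversed a call and 18 moved beyond counting error. The list genes called numbered 23 at 12 h relative to dormancy, 36 with CPM and 56 at 1.5 times. Relative to reactivating blastocysts they numbered 21, 33 with CPM and 47 at 1.5 times. At 6 h the count of 1 (Prss29, named after its value was seen) became 5 with CPM, 2 with a pseudocount of 0.1, 0 with a minimum of 5 RPKM and 5 at 1.5 times. For introns at 12 h relative to dormancy, scaling to all intron reads in place of gene reads left 1 member lower by 2 times (Spry2) and 1 higher (Etv4). With gene reads 3 were lower and 0 higher.

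Median-ratio scaling moved the median log2 difference of protein-coding genes, reactivated minus reactivating, to -0.00, against -0.13 as deposited. Relative to that deposited median, Dusp4 differed by -1.04 and Spry2 by -1.02. Against dormancy, relative to a median of -0.07, they differed by -1.19 and -0.95. Among all called genes, 40.7% were higher at 12 h relative to dormancy, 51.9% with upper-quartile scaling and 31.5% with CPM. Relative to reactivating blastocysts 33.4% were higher, and 49.6% with median-ratio scaling, 52.0% with upper-quartile scaling, 44.8% without mitochondrial and small RNA genes and 25.1% with CPM. Etv4, Etv5, Spry4 and Spred1 rest on 64 to 412 exon reads, which limits the changes they can show. No paired analysis was possible because each state has 1 library.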

Other observations

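Heparan sulphate proteoglycans hold FGF ligands at the cell surface, and the enzymes that build and trim their chains decide how well ligands bind. Of 17 such genes compared at 12 h relative to dormancy, 1 fell and 0 rose, near the 7.66% of all genes that were lower. Their median log2 difference was -0.25. Ndst1, which starts the sulphation of the chains, had 12.11, 12.87 and 4.59 RPKM in dormant, reactivating and reactivated blastocysts. Other genes of this list are named after their values were seen. The surface proteoglycan Sdc4 was the most abundant, at 374.13, 725.99 and 447.16 RPKM, highest at 6 h and just short of the size rule there. Sulf2, which removes sulphate outside the cell, had 14.07, 16.77 and 7.45 RPKM, lower in reactivated than in reactivating blastocysts by the rule.

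Reads across the exon junctions of Dusp6 numbered 14, 78 and 53 in dormant, reactivating and reactivated blastocysts, beside totals of 926474, 1100004 and 1262818 junction reads in those libraries. The exon reads of Dusp6 were 2007, 2506 and 2788, so the junction reads differed more between dormant and reactivating blastocysts than the exon reads did. Dusp6 was picked for this after its values were seen, and junction reads also varied in other members. Etv4 had 7, 31 and 26 and Spry2 had 8, 20 and 10, whereas Etv5 had 10, 1 and 13 and Spry4 had 4, 0 and 2.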
